A study of Homo sapiens with 29 samples.

Results

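The CCAAT/enhancer-binding proteins (C/EBPs) examined here were CEBPA, CEBPB, CEBPD and CEBPG, 4 of the 28266 genes in a table of RNA sequencing counts. They were chosen by name, as the C/EBP genes linked to the senescence-associated secretory phenotype (SASP), and their counts were followed across 3 groups of 6 libraries each. All groups were labelled as IMR90 ER:RAS cells, an established human lung fibroblast line into which a retroviral vector had brought a fusion of the estrogen receptor with oncogenic RAS that 4-hydroxytamoxifen (4OHT) switches on. DMSO_siNT cells received the solvent and a non-targeting siRNA (siNT 2 or siNT 4), and 4OHT_siNT cells received 4OHT and the same non-targeting siRNAs, which gives oncogene-induced senescence (OIS). 4OHT_siSMARCA4 cells received 4OHT and 1 of 2 siRNAs, siSMARCA4_2 or siSMARCA4_4, against SMARCA4, an ATPase of the SWI/SNF chromatin remodelling complex. Cells took up siRNA by reverse transfection a day before 4OHT, and RNA was taken on day 7 of treatment, as mRNA selected by its poly(A) tail. The comparisons ask how each C/EBP transcript moved in OIS, and how it moved when SMARCA4 was depleted in senescent cells.

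C/EBPs are basic leucine zipper (bZIP) factors that bind DNA as dimers with each other or with related bZIP proteins. C/EBPβ, also named NF-IL6 after a site in the IL6 promoter, is known in OIS for driving inflammatory cytokines of the SASP together with NF-κB. C/EBPδ is an immediate response gene of the acute-phase and cytokine response, C/EBPα drives differentiation of fat, liver and myeloid cells, and C/EBPγ lacks a transactivation domain of its own and acts as a dimer partner, among others of ATF4 on genes of amino acid supply and redox balance. CEBPB mRNA is translated into a long activating and a short inhibitory protein, which read counts do not separate.

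The stretches upstream of the start sites are shown because CEBPB and CEBPG differ in the short motifs they carry there. IL6 is shown as the textbook target with a C/EBP motif, and CEBPD is not shown. They are RefSeq sequences of build GRCh38.p14, all on the plus strand, 5′ to 3′, and capitals mark every match to 6 searched motifs on either strand. CEBPB is a gene of 1 exon at chr20:50190830-50192668 and its stretch is chr20:50190650-50190829. CEBPG lies at chr19:33373685-33382686 and has 3 annotated transcripts of 2 or 3 exons; the stretches before its first and second RefSeq start sites are chr19:33373529-33373708 and chr19:33373933-33374112. IL6 lies at chr7:22725884-22732002, and its stretch, chr7:22727020-22727176, precedes a start site inside that span.
CEBPB: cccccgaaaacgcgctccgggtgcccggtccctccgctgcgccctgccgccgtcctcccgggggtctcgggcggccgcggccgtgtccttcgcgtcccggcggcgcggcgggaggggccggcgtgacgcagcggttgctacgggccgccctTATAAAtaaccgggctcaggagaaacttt
CEBPG, first start: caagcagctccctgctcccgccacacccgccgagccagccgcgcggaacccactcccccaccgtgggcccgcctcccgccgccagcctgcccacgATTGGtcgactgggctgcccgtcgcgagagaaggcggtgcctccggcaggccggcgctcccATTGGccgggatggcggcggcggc
CEBPG, second start: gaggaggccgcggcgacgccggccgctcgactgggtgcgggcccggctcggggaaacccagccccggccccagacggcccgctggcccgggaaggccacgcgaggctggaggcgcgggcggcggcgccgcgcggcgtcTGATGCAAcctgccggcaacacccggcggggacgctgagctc
IL6: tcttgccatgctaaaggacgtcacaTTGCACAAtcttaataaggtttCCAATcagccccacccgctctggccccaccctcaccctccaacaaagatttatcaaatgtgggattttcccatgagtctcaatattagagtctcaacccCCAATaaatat

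The motifs were searched in 35116 RefSeq windows of 300 bases, from 250 bases before a start site to 50 after it. The C/EBP palindrome TTGCGCAA was found in 0.151% of them, its looser form TTGCNNAA, which includes the palindrome, in 10.5%, the composite C/EBP-ATF element TGATGCAA in 0.866%, the cAMP response element TGACGTCA in 1.85%, CCAAT in 34.6% and TATAAA in 11.5%. Windows are described for 3 of the 4 members, CEBPA, CEBPB and CEBPG. CEBPD, on chromosome 8, was left out by choice, so nothing is said of its motifs. The CEBPB window shown held TATAAA from position -29 and, outside the printed stretch, CCAAT from position -245, which is also the single match in the window of a second, upstream start. CEBPG held CCAAT on the minus strand from positions -85 and -24 of its first start, and TGATGCAA from position -42 of its second start. The CEBPA window held TATAAA from position -30. IL6 held a TTGCNNAA match, TTGCACAA, from position -155, and CCAAT from positions -133 and -34. TTGCNNAA was found for 5 of 12 secreted and inflammatory C/EBP targets with a window (IL6, IL1B, CXCL2, PTGS2 and PTX3), and likewise for 3 of 7 dimer partners, 5 of 16 regulators, 4 of 9 adipogenic, 4 of 13 amino acid and 1 of 8 acute-phase genes. A gene can have several windows, so these counts of genes are not comparable with the share of single windows. The windows of CEBPA, CEBPB and CEBPG were 76.7% to 80.7% GC, against a median of 58.7% over all windows and 49.3% for IL6. A match is a description of letters and not a site shown to be bound, and a motif without a match is only absent from these windows.

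Total counts spanned 9657309 to 13448183 for the DMSO_siNT libraries, 13237672 to 15407710 for the 4OHT_siNT libraries and 11382143 to 18039313 for those of 4OHT_siSMARCA4. Libraries are named here by siRNA number and set, a set being a number with the letters V or VM, whose meaning is not stated. All 4OHT_siNT libraries were VM, and DMSO_siNT had 3 V and 3 VM. The 4OHT_siSMARCA4 group had 3 V, 2 VM and 1 library whose set matched no sample title, called the unlabelled library. Its column name carries the letters VM, but VM sets and VM libraries leave it out here unless it is named. The labels do not say that libraries came from separate cultures, so p-values measure only the spread between these libraries. One library stood apart. In DMSO_siNT 4-2V, ESR1, which covers the receptor part of the fusion, was at 29.5 CPM (counts scaled to a common library total), against 1034 to 1316 CPM in the other 5 DMSO_siNT libraries, and HRAS was at 436 CPM against 2165 to 2852 CPM. The same library had the highest CEBPB, CEBPD, IL6, CXCL8 and SOD2 of its group, and its low ESR1 and HRAS go against its label, so that it may not hold ER:RAS cells. Values without it are given beside printed changes whose call it altered, and beside some that it moved in size. Other printed DMSO_siNT levels and changes include it. SMARCA4 was at 217 ± 15.3 CPM (SD, n = 6) in DMSO_siNT, 301 ± 20.9 CPM in 4OHT_siNT and 70.4 to 141 CPM in 4OHT_siSMARCA4, where it fell by 1.61 ± 0.14 on the log2 scale (SE; adjusted p = 1.3e-06). All levels are CPM after TMM scaling, and all p-values are from the quasi-likelihood test of edgeR, two-sided and adjusted over 13136 genes. A gene is called at an adjusted p under 0.05.

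CEBPA was close to absent. Its row held 0 to 4 counts per library, with 0 counts in 3 DMSO_siNT, 2 4OHT_siNT and 2 4OHT_siSMARCA4 libraries and 7, 12 and 8 counts in all, respectively. A count of 0 allows a level of up to 3 counts, which is 0.168 to 0.359 CPM across the libraries and covers counting error only, as do all such limits here. It failed the filter on low counts, so the number of members tested is 3 of 4, and no fold is given. CEBPA is a gene of 1 exon at chr19:33299934-33302534, and CEBPA-DT, a long noncoding RNA gene that starts 322 bases from it on the opposite strand, had at most 3 counts in any library. A difference in CEBPA between the groups was not detectable at this depth. Of 4 markers of adipocytes, a known setting of C/EBPα, FABP4 alone passed the filter, and of 7 blood cell markers CD68 alone did.

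**Figure D1:**
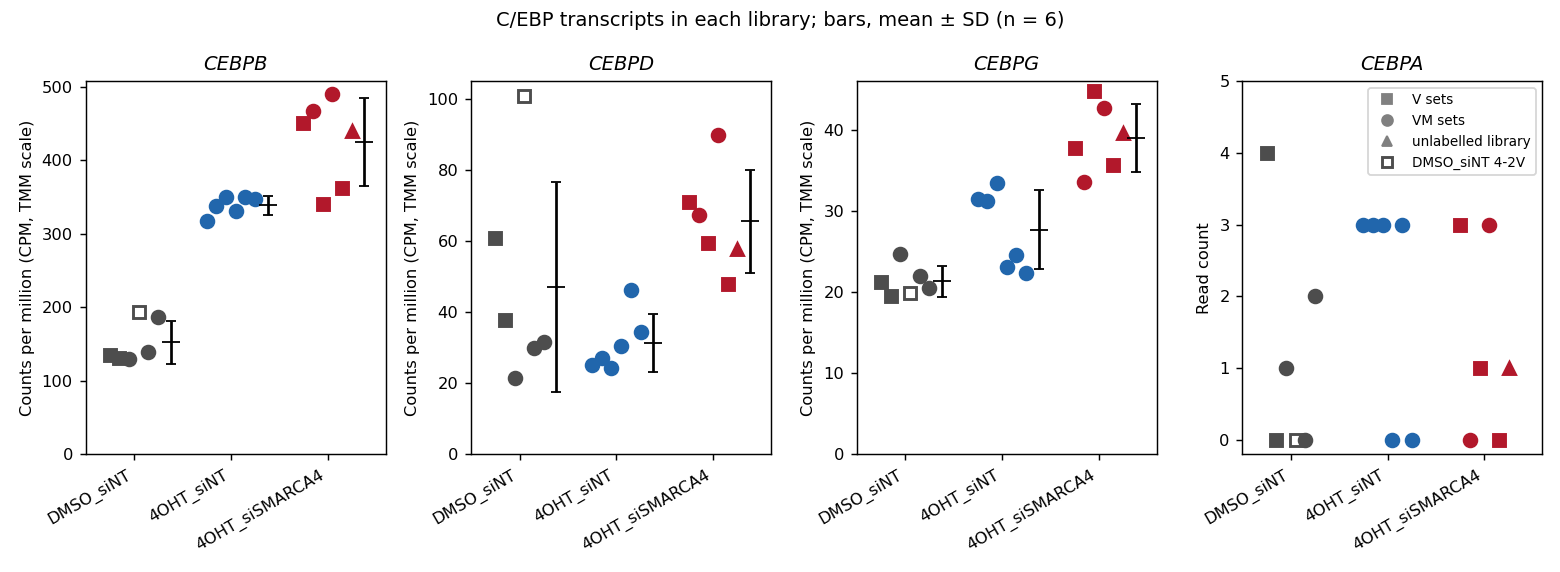
Level of each C/EBP transcript in each of the 18 libraries, in CPM after TMM scaling (CEBPA as read counts), by group. Squares are V sets, circles VM sets, the triangle the unlabelled library, the open square DMSO_siNT 4-2V, and bars the mean ± SD (n = 6); CEBPB separates the DMSO_siNT libraries (130 to 193 CPM) from all others (318 CPM and above), CEBPD was highest in DMSO_siNT 4-2V (101 CPM), and CEBPG was lowest in DMSO_siNT.

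In OIS, CEBPB rose 2.22-fold and CEBPG 1.30-fold, while CEBPD did not pass the test. Of the 3 members tested, 2 were called, both higher, beside 52.8% of all genes tested that were called in this comparison, 23.9% higher and 28.9% lower. These shares are large, so a call by itself says little about the members, and CEBPB was 826th of the 13136 genes by p-value. The groups did not overlap for CEBPB alone of the 3, against 33.8% of all genes. As in any bulk sample, fewer cells of a type and less RNA per cell cannot be told apart.

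CEBPB, the C/EBP best known for SASP control, was at 135, 131, 130, 193, 140 and 186 CPM in DMSO_siNT libraries 2-1V, 2-2V, 2-2VM, 4-2V, 4-2VM and 4-3VM. In 4OHT_siNT it spanned 318 to 349 CPM with a median of 342 CPM. Every 4OHT_siNT library was thus above every DMSO_siNT library, and 4OHT_siNT libraries lay within a narrow band (339 ± 12.6 CPM, against 153 ± 29.3 CPM in DMSO_siNT; SD, n = 6). The change was 1.15 ± 0.12 on the log2 scale (SE; adjusted p = 1.95e-07), or 2.22-fold with a 95% interval of 1.88 to 2.62. It was 1.23 (adjusted p = 5.21e-09) without DMSO_siNT 4-2V, and 1.16 among VM sets only.

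The antisense gene CEBPB-AS1, a long noncoding RNA at chr20:50184598-50191498, shares 669 bases with CEBPB (chr20:50190830-50191498). It was at 4.37 to 13.8 CPM in DMSO_siNT and 8.20 to 35.7 CPM in 4OHT_siNT, and rose by 1.37 ± 0.33 on the log2 scale (adjusted p = 0.00174) with overlapping groups. The library kit marks strand, but whether the counting used it is not given in the sources used here, so reads of the shared bases cannot be told apart between both genes. How many CEBPB-AS1 reads were counted to CEBPB was not tested.

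CEBPG, the dimer partner, was at 21.3, 19.5, 24.7, 19.96, 22.0 and 20.5 CPM in DMSO_siNT libraries 2-1V, 2-2V, 2-2VM, 4-2V, 4-2VM and 4-3VM. It was at 31.5, 31.2 and 33.5 CPM in the 4OHT_siNT libraries with siNT 2, and at 23.1, 24.6 and 22.4 CPM in those with siNT 4. The siNT 2 libraries of 4OHT_siNT were above all DMSO_siNT libraries, and those with siNT 4 lay within the DMSO_siNT range. The change over both was 0.38 ± 0.12 on the log2 scale (adjusted p = 0.0104), or 1.30-fold with a 95% interval of 1.11 to 1.52. With the siRNA 4 libraries alone it was 0.20 (adjusted p = 0.327), and among VM sets only it was 0.31 (adjusted p = 0.0813). With the set labels as a replicate block, a setting described at the end, CEBPG was not called either.

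CEBPD, a cytokine-responsive gene of 1 exon at chr8:47736913-47738164 on the minus strand, was the least even between DMSO_siNT libraries. In DMSO_siNT it was at 61.0, 37.9, 21.6, 101, 29.9 and 31.6 CPM in libraries 2-1V, 2-2V, 2-2VM, 4-2V, 4-2VM and 4-3VM. In 4OHT_siNT it was at 25.3, 27.2, 24.2, 30.6, 46.3 and 34.5 CPM in libraries 2-1VM, 2-2VM, 2-3VM, 4-1VM, 4-2VM and 4-3VM. The 3 V libraries of DMSO_siNT (37.9 to 101 CPM) were above its 3 VM libraries (21.6 to 31.6 CPM), and the 4OHT_siNT range began within the latter. The log2 change was -0.58 ± 0.29 (adjusted p = 0.099), -0.21 (adjusted p = 0.434) without DMSO_siNT 4-2V, and 0.18 (adjusted p = 0.458) among VM sets only, where its sign turned. The VM sets hold the letters fixed. Within DMSO_siNT the V libraries, with 4-2V at 101 CPM among them, averaged 66.6 CPM and the VM libraries 27.7 CPM.

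In senescent cells depleted of SMARCA4, CEBPD rose 2.09-fold and CEBPG 1.41-fold, and CEBPB was 1.25-fold higher without passing the test. Of the 3 members tested, 2 were called, both higher, where 10.6% of all genes were called, 4.99% higher and 5.65% lower. The groups did not overlap for the same 2 members, against 11.4% of all genes.

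CEBPD was at 71.1, 67.4, 59.5, 90.1, 48.0 and 57.8 CPM in 4OHT_siSMARCA4 libraries 2-3V, 2-3VM, 4-2V, 4-2VM, 4-3V and the unlabelled one. The lowest of these (48.0 CPM) was just above the highest 4OHT_siNT library (46.3 CPM), and the means were 65.6 ± 14.4 CPM and 31.4 ± 8.24 CPM (SD, n = 6). The change was 1.07 ± 0.29 on the log2 scale (adjusted p = 0.0237), or 2.09-fold with a 95% interval of 1.41 to 3.11. It was 1.31 among VM sets only and 1.05 (adjusted p = 0.00108) without DMSO_siNT 4-2V, both called. With siRNA 4 alone it was 0.80 and not called (adjusted p = 0.6). That fit holds DMSO_siNT 4-2V and called 4 genes in this comparison, against 1397 with all libraries. With the set labels as a replicate block, a setting described at the end, CEBPD was not called either. The call was also lost when any of 4 libraries was left out, 4OHT_siNT 2-1VM (1.00, adjusted p = 0.058), 2-2VM (1.02, adjusted p = 0.0519), 2-3VM (0.99, adjusted p = 0.0551) or 4OHT_siSMARCA4 4-2VM (0.95, adjusted p = 0.0645).

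CEBPG was at 37.7, 33.5, 44.8, 42.7, 35.7 and 39.7 CPM in the 4OHT_siSMARCA4 libraries in the same order. The lowest library (33.54 CPM) barely exceeded the highest 4OHT_siNT library (33.48 CPM). The change was 0.49 ± 0.12 on the log2 scale (adjusted p = 0.00899), or 1.41-fold with a 95% interval of 1.20 to 1.65. Among VM sets only it was 0.44 (adjusted p = 0.0582). The unlabelled library, whose column name carries VM, was added to those sets after seeing the data. With it the change was 0.46, which was called. With the set labels as a replicate block CEBPG was not called. Against siNT 2, siSMARCA4_2 gave 0.20 (adjusted p = 0.189), and against siNT 4, siSMARCA4_4 gave 0.79 (adjusted p = 0.121), the latter in the fit that called 4 genes.

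CEBPB was at 451, 466, 341, 489, 362 and 439 CPM in the 4OHT_siSMARCA4 libraries in that order, with a mean of 425 ± 59.6 CPM. The V libraries 4-2V and 4-3V were within or near the 4OHT_siNT range of 318 to 349 CPM, and the other 4 were above it. The log2 change was 0.33 ± 0.12 (adjusted p = 0.0931), a 1.25-fold difference with a 95% interval of 1.06 to 1.48. It passed the test in other fits, with 0.32 (adjusted p = 0.0262) without DMSO_siNT 4-2V, where 24.6% of all genes were called, and 0.33 (adjusted p = 0.0119) with the compared groups alone in the fit. Among VM sets only it was 0.48 (adjusted p = 0.0105). CEBPB-AS1 was at 20.5 to 35.8 CPM, a log2 difference of 0.36 ± 0.32 (adjusted p = 0.521).

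SMARCA4 itself was at 125, 87.0, 141, 70.4, 92.7 and 78.8 CPM in these libraries. The library with the least SMARCA4, 4-2VM, had the most CEBPB and the most CEBPD, and the library with the most SMARCA4, 4-2V, had the least CEBPB but the most CEBPG. Library 2-3V, second in SMARCA4, had CEBPB at 451 CPM, so the order was not kept throughout. V libraries had more SMARCA4 (92.7 to 141 CPM) than the 2 VM libraries (70.4 and 87.0 CPM), and less CEBPB on average (385 CPM against 478 CPM). The part of the remaining SMARCA4 in these levels was not tested.

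**Figure D2:**
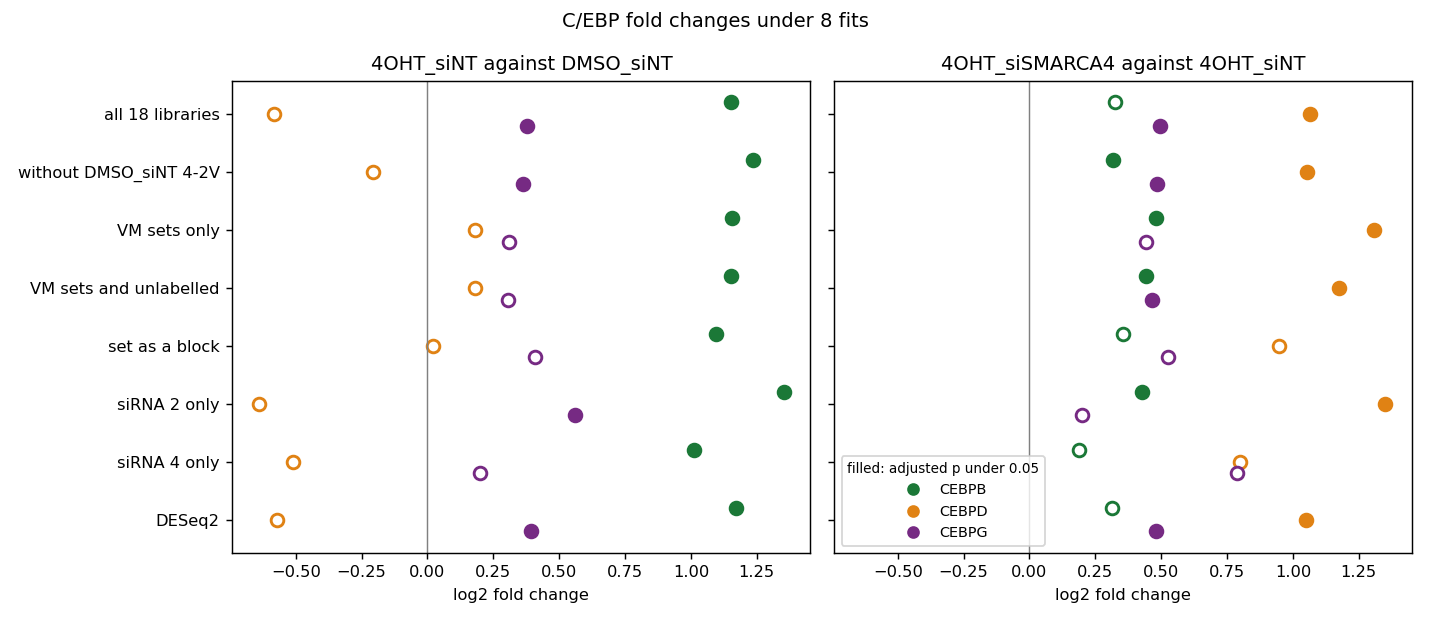
Log2 fold changes of CEBPB, CEBPD and CEBPG in 8 fits, for 4OHT_siNT against DMSO_siNT (left) and 4OHT_siSMARCA4 against 4OHT_siNT (right). Filled points have an adjusted p under 0.05; CEBPB on the left stays between 1.01 and 1.35 and is filled in every fit drawn, whereas CEBPD on the left lies on both sides of 0 and is filled in none.

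SMARCA4-depleted senescent cells were also set against the growing controls, a comparison that shares its libraries with both others. CEBPB was 2.79-fold higher (1.48 ± 0.12 on the log2 scale, adjusted p = 5.98e-09) and CEBPG 1.83-fold higher (0.87 ± 0.12, adjusted p = 3.32e-06), both called. CEBPD differed by 0.48 ± 0.29 (adjusted p = 0.172), and by 0.85 (adjusted p = 0.00215) without DMSO_siNT 4-2V, which had more CEBPD than any 4OHT_siSMARCA4 library. Thus 2 of the 3 members tested were called, both higher, where 50.5% of all genes were called, 23.3% higher and 27.3% lower. The groups did not overlap for CEBPB and CEBPG, against 29.6% of all genes. In order of level, CEBPB ran DMSO_siNT, 4OHT_siNT, 4OHT_siSMARCA4, of which the last step did not pass the test. CEBPG ran the same way with each step called. CEBPD ran 4OHT_siNT, DMSO_siNT, 4OHT_siSMARCA4, and neither step between neighbours was called.

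The siRNAs of each arm were compared in a fit of treatment by siRNA number over 13659 genes. Between siNT 2 and siNT 4 in 4OHT cells, 0.0732% of all genes were called by edgeR, and 0 of the 3 members. At an unadjusted p under 0.05 were 1 member and 1447 of the 13659 genes. That member was CEBPG, which was higher with siNT 2 by 0.45 ± 0.13 on the log2 scale (unadjusted p = 0.00249, adjusted p = 0.184), in 3 of 3 libraries. This difference was called when DMSO_siNT 4-2V was left out, with the value given at the end. Between siSMARCA4_2 and siSMARCA4_4, 0.00732% of all genes were called and 0 of the 3 members, none of which was among the 878 genes at an unadjusted p under 0.05, with CEBPD differing by 0.00 (95% interval -0.78 to 0.79), CEBPB by 0.20 (-0.08 to 0.49) and CEBPG by -0.14 (-0.38 to 0.11). In DMSO cells 0.0512% of genes were called and 0 of the 3 members. Among the 3872 of 13659 genes at an unadjusted p under 0.05 was 1 member, CEBPB, which was lower with siNT 2 by 0.40 ± 0.15 (adjusted p = 0.102). For CEBPG, siSMARCA4_2 against siNT 2 gave a smaller change than siSMARCA4_4 against siNT 4, by 0.59 ± 0.18 on the log2 scale (unadjusted p = 0.00435). That difference did not pass adjustment (p = 0.382). It takes in the 0.45 between the siNT controls, beside -0.14 between the SMARCA4 siRNAs. The labels do not say that siRNAs of the same number belong together. The same contrast was 0.24 for CEBPB (adjusted p = 0.92) and 0.55 for CEBPD (adjusted p = 0.942), with 95% intervals of -0.17 to 0.64 and -0.58 to 1.67.

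Per length of merged exons, CEBPB was the main C/EBP transcript in every library. The sum of the 4 members was 126 ± 34.9 CPM per kb in DMSO_siNT, 216 ± 10.98 in 4OHT_siNT and 293 ± 41.9 in 4OHT_siSMARCA4 (SD, n = 6). CEBPB held 67.3% ± 9.18 of that sum in DMSO_siNT, 85.3% ± 2.00 in 4OHT_siNT and 78.8% ± 2.22 in 4OHT_siSMARCA4. CEBPD held 28.2% ± 10.1, 11.5% ± 2.48 and 17.8% ± 2.02, and CEBPG 4.45% ± 1.31, 3.18% ± 0.64 and 3.35% ± 0.67. The shares are a description without a test. CEBPB held 76.0% to 81.0% in 4OHT_siSMARCA4 libraries, below all 4OHT_siNT libraries (81.5% to 87.3%) and overlapping with DMSO_siNT (55.1% to 77.0%). With coding lengths in place of exon lengths, CEBPG, with 450 coding of 4056 exon bases, held 14.4% to 19.5% of the sum on average, and CEBPB remained the largest in each group (58.6% to 76.5%).

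**Figure D3:**
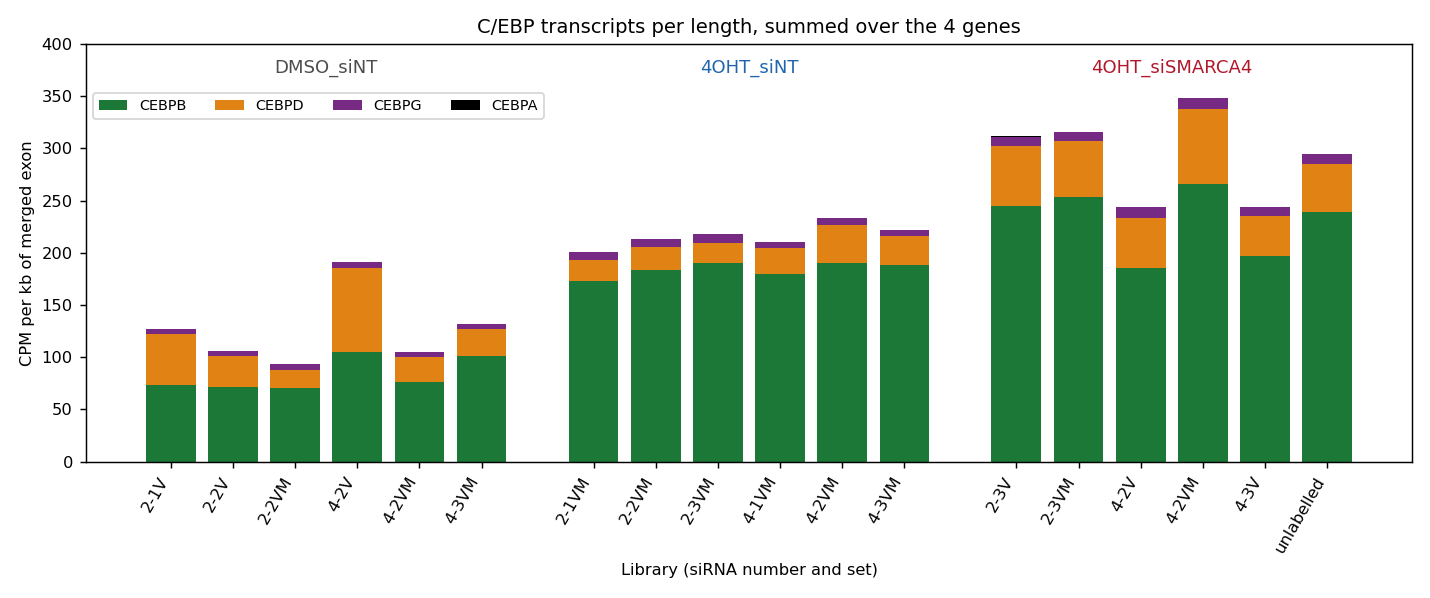
CPM per kb of merged exon of the 4 C/EBP genes, stacked, in each of the 18 libraries. The sum is 94.0 to 191 in DMSO_siNT (highest in 4-2V, where CEBPD is largest), 201 to 233 in 4OHT_siNT and 244 to 349 in 4OHT_siSMARCA4, with CEBPB the tallest part of each bar.

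Genes whose log2 CPM most resembled a member's over the 18 libraries were sought among 11513 genes. For CEBPB they were DHRS7, RALA and SLC66A1 (Pearson r = 0.987, 0.987 and 0.983), for CEBPD NR4A2, IL32 and CYP1B1 (0.931, 0.928 and 0.923), and for CEBPG IMPAD1, ESM1 and OSTM1 (0.948, 0.936 and 0.933). With the group means removed, CEBPD was nearest to SOD2, mitochondrial superoxide dismutase (r = 0.971), which was at 130 to 390 CPM in DMSO_siNT, 442 to 698 CPM in 4OHT_siNT and 1058 to 1484 CPM in 4OHT_siSMARCA4. CEBPB was then nearest to NDUFA6 (0.961), a subunit of respiratory complex I, and CEBPG to MTHFD2 (0.844), an enzyme of mitochondrial one-carbon metabolism. Between members, r with group means removed was 0.52 for CEBPB and CEBPD, -0.23 for CEBPB and CEBPG, and -0.37 for CEBPD and CEBPG. The libraries share groups, set letters and 4-2V, so these values describe these 18 libraries and carry no test.

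Relatives and dimer partners are read against the shares of all genes called, 52.8% in OIS and 10.6% in the knockdown. DDIT3 (CHOP), a C/EBP relative of the stress response that blocks DNA binding of its partners, was at 12.9 ± 5.32 CPM in DMSO_siNT, 20.5 ± 2.45 in 4OHT_siNT and 23.0 ± 4.69 in 4OHT_siSMARCA4, and rose by 0.67 ± 0.20 on the log2 scale in OIS (adjusted p = 0.00796). Of the other family names, CEBPE had at most 1 count in a library and CEBPZ, a C/EBP by name, differed by 0.09 in OIS (adjusted p = 0.599), and by 0.28 (adjusted p = 0.00663, called) without DMSO_siNT 4-2V. Among 7 of 8 partners that passed the filter, 2 fell in OIS and 0 rose, with a median of -0.05 beside -0.05 over all genes. They were NFIL3, a bZIP repressor (-0.80, adjusted p = 4.28e-05), and the AP-1 gene FOS (-0.67, adjusted p = 0.0165), the latter at -0.04 (adjusted p = 0.784) among VM sets only. In the knockdown 1 partner rose and 0 fell, with a median of 0.16 beside 0.01 over all genes. It was ATF4, the translation-controlled factor of the integrated stress response, from 195 ± 9.17 to 248.6 ± 23.7 CPM (0.35 ± 0.09, adjusted p = 0.0129).

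Signalling and turnover genes around the C/EBPs were called in both directions, at a share near that of all genes in OIS. Of 19, all of which passed the filter, 6 rose and 3 fell in OIS (median 0.17, beside -0.05 over all genes, of which 23.9% rose and 28.9% fell), and 2 rose and 3 fell in the knockdown (median 0.02, beside 0.01 over all genes, of which 4.99% rose and 5.65% fell). TRIB1, a pseudokinase that directs C/EBPα to degradation, rose from 54.6 ± 16.5 to 247 ± 18.2 CPM in OIS (2.18 ± 0.15 on the log2 scale, adjusted p = 4.05e-10). RPS6KA3 and RPS6KA1, kinases of the RSK family that phosphorylate C/EBPβ, rose by 1.65 and 1.40 (adjusted p = 5.94e-09 and 0.000127). OSMR, the oncostatin M receptor, rose by 1.41 (adjusted p = 1.71e-06), whereas IL6R, the ligand-binding chain of the IL-6 receptor, fell by 1.06 (adjusted p = 0.000516) and LIFR fell by 0.72 (adjusted p = 0.0046), the latter -0.33 (adjusted p = 0.124) among VM sets only. IL6R was at 15.2 ± 6.79 CPM in DMSO_siNT, 7.19 ± 0.99 in 4OHT_siNT and 16.2 ± 3.91 in 4OHT_siSMARCA4, and so rose in the knockdown (1.17 ± 0.22, adjusted p = 0.00224). There RPS6KA3 rose further (0.61, adjusted p = 0.0053), and LIFR, TRIB2 and MAPK3 (ERK1) fell by 0.67, 0.92 and 0.47 (adjusted p = 0.0357, 0.0199 and 0.0124).

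The list of secreted and inflammatory genes known as C/EBP targets had the highest median in both comparisons, and its genes are also targets of NF-κB and other factors. Of 15, all of which passed the filter, 13 rose and 0 fell in OIS, with a median of 6.71 (that of PTGS2) beside -0.05 over all genes, of which 23.9% rose. Genes near 0 in DMSO_siNT, such as CSF3 and CCL20 (at most 0.478 and 0.286 CPM), passed the filter only through the 4OHT groups and could hardly fall. The list was also chosen with earlier results of these data known, so its OIS count and median are a description and not a test. In the knockdown 6 rose and 0 fell (median 0.84 beside 0.01 over all genes, of which 4.99% rose). Without DMSO_siNT 4-2V 8 rose (median 0.83), where 24.6% of all genes were called. Among VM sets only 5 rose and 1 fell, IL1B (-0.66, adjusted p = 0.0263). The median there was 0.31, and 21.0% of all genes were called.

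IL6, the SASP cytokine whose promoter holds TTGCACAA, was at 2.99 to 13.7 CPM in DMSO_siNT (median 4.67), 44.3 to 87.2 CPM in 4OHT_siNT (median 50.8) and 96.3 to 216 CPM in 4OHT_siSMARCA4 (median 154). No groups overlapped, and IL6 rose by 3.19 ± 0.32 on the log2 scale in OIS (adjusted p = 7.78e-08) and by 1.48 ± 0.29 in the knockdown (adjusted p = 0.00232). Among depleted cells IL6 averaged 193 CPM in V and 130 CPM in VM libraries, the opposite order to CEBPB, and was at 96.3 CPM in the unlabelled library. In DMSO_siNT, IL6 reached 6.91 CPM at most without 4-2V. CXCL8, the neutrophil chemokine IL-8, was at 2.28 to 23.7 (at most 6.13 without 4-2V), 1304 to 2470 and 2700 to 5228 CPM, again without overlap. Its log2 difference in the knockdown, 1.10 ± 0.37, did not pass the test (adjusted p = 0.0653) and did so without DMSO_siNT 4-2V (1.09, adjusted p = 0.000276) and among VM sets only (0.70, adjusted p = 0.0249). Without that library CSF3 was called too (0.91, adjusted p = 0.0218), as were C3 (0.58, adjusted p = 0.00683) and TRIB1 (-0.26, adjusted p = 0.0256).

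Several chemokine and cytokine genes of that list were near 0 in growing cells, so their levels are given instead of a fold. CSF3, the granulocyte growth factor, had at most 4 counts in a DMSO_siNT library and was at 44.4 to 139 CPM in 4OHT_siNT. IL1B was at 0.357 to 10.04 CPM, with the highest value in 4-2V, and at 783 to 1458 CPM in 4OHT_siNT. CXCL3 and CXCL5 were at most at 0.713 and 2.39 CPM in DMSO_siNT and at 84.6 to 151 and 177 to 377 CPM in 4OHT_siNT. In the knockdown PTGS2 (COX-2), CXCL2, CCL20, CXCL5 and CXCL3 rose beside IL6, PTGS2 by 1.61 ± 0.15 (adjusted p = 4.1e-06) and CXCL2 by 1.57 ± 0.23 (adjusted p = 0.000279). CCL20 (1.10), CXCL5 (1.08) and CXCL3 (0.84) were no longer called among VM sets only, at 0.31, 0.47 and 0.15 (adjusted p = 0.41, 0.123 and 0.614). CCL2 and PTX3 passed in neither comparison with all libraries, at -0.26 and -0.43 in OIS. Among VM sets only both were called higher in OIS (0.44, adjusted p = 0.00313, and 0.84, adjusted p = 7.83e-05), and PTX3 also in the knockdown (0.49, adjusted p = 0.0241).

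**Figure D4:**
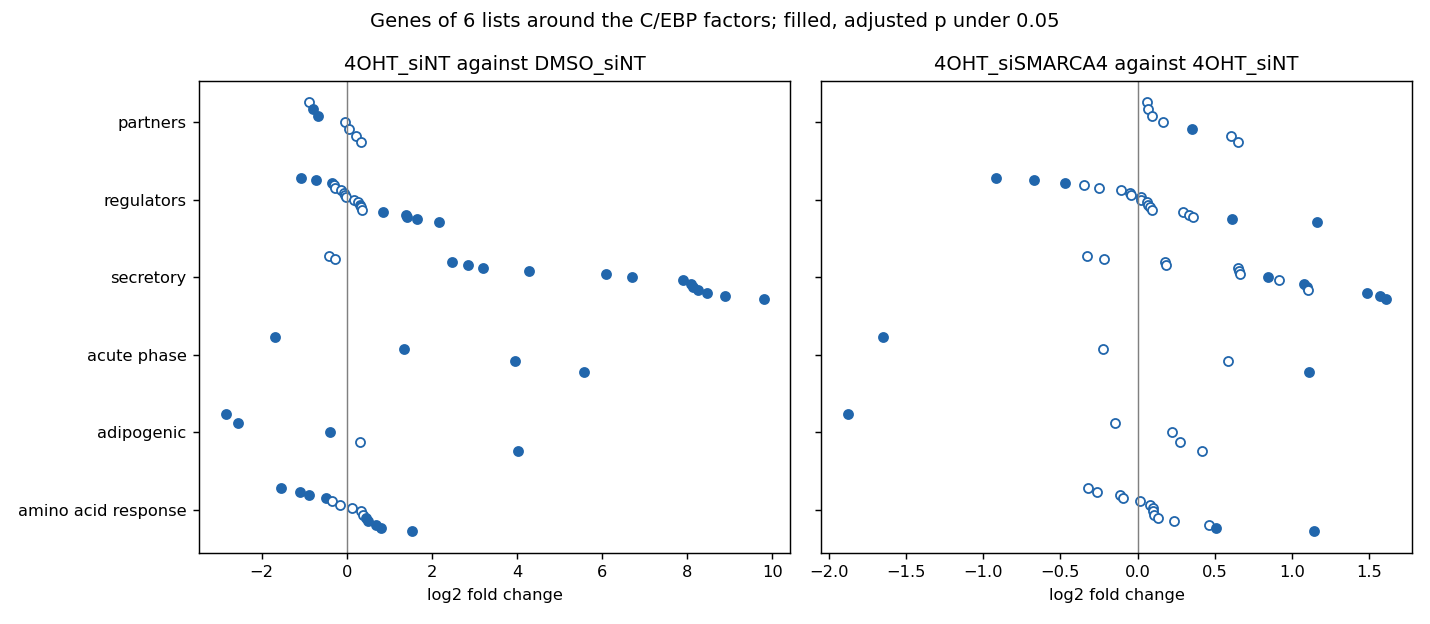
Log2 fold change of each tested gene in 6 lists around the C/EBPs, for 4OHT_siNT against DMSO_siNT (left) and 4OHT_siSMARCA4 against 4OHT_siNT (right; the axes differ in range). Filled points have an adjusted p under 0.05; on the left 13 of 15 secretory genes lie to the right of 0 and each of the other lists lies on both sides of it.

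Targets of the other C/EBP settings were mostly silent or mixed. Of 13 acute-phase and innate genes 4 passed the filter. In OIS C3, a complement component, rose from 0.76 ± 0.76 to 33.0 ± 7.49 CPM (5.58 ± 0.33, adjusted p = 7.26e-11), SOD2 rose by 1.34 (adjusted p = 2.39e-05), and CFB fell by 1.69 (adjusted p = 0.00108), with a median over the 4 of 2.64. The highest C3 of DMSO_siNT, 2.27 CPM, was that of 4-2V. SERPINA1 had 0 to 8 counts in DMSO_siNT libraries, the most in 4-2V, and was at 1.41 to 4.43 CPM in 4OHT_siNT, which was called higher (adjusted p = 1.58e-05); its fitted change, 3.95, was 5.13 without 4-2V. In the knockdown SOD2 rose by 1.11 ± 0.21 (adjusted p = 0.00195) and SERPINA1, the antitrypsin gene, fell by 1.65 ± 0.46 (adjusted p = 0.0272), with a median of 0.18. Of 12 adipogenic genes 5 passed. In OIS PPARG, the adipocyte master regulator, fell by 2.84 ± 0.19 (adjusted p = 3.4e-10), as did FABP4 (-2.55, adjusted p = 0.0007) and KLF5 (-0.39, adjusted p = 0.0228), G0S2, an inhibitor of fat breakdown, rose by 4.03 ± 0.36 (adjusted p = 2e-08), and the median was -0.39. FABP4 had its highest level, 83.4 CPM, in DMSO_siNT 4-2V and was at -1.48 (adjusted p = 0.000241) without it, and KLF5 was at -0.35 (adjusted p = 0.0616) among VM sets only. In the knockdown G0S2 fell by 1.88 ± 0.31 (adjusted p = 0.000732), no other gene of the list was called, and the median was 0.22.

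Genes of amino acid supply, where CEBPG and ATF4 are known to act together, were also called in both directions. Of 16, 14 passed the filter, and in OIS 5 rose and 4 fell (median 0.23), where 23.9% and 28.9% of all genes did. TRIB3, a stress pseudokinase induced by ATF4, rose by 1.53 ± 0.18 (adjusted p = 1.07e-06). PHGDH and PSAT1, enzymes of serine synthesis, fell by 1.55 and 1.09 (adjusted p = 1.24e-07 and 0.00204), and SLC7A11, the cystine transporter, fell by 0.88 (adjusted p = 0.00109). In the knockdown 2 rose and 0 fell (median 0.10, beside 0.01 over all genes, of which 4.99% rose and 5.65% fell). SLC7A11 rose from 60.3 ± 11.4 to 133 ± 50.2 CPM (1.14 ± 0.20, adjusted p = 0.00118) and GCLM, of glutathione synthesis, from 41.6 ± 3.25 to 59.1 ± 3.25 CPM (0.51 ± 0.15, adjusted p = 0.0368), both redox genes.

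The fibroblast identity of the cells was measured with 8 markers, all of which passed the filter, whose sum ran from 11448 to 31306 CPM among DMSO_siNT libraries, from 14920 to 19815 CPM with 4OHT alone and from 8627 to 12575 CPM after SMARCA4 depletion. Of these, 5 fell in OIS and 6 in the knockdown (28.9% and 5.65% of all genes fell), and 7 in each without DMSO_siNT 4-2V, where COL1A1 (-0.78) and COL3A1 (-0.80) also fell in OIS and LUM (-0.73) in the knockdown. The largest falls were those of DCN in OIS (-5.17 on the log2 scale) and COL1A2 in the knockdown (-1.46). VIM was called in neither comparison (0.10 and -0.03). Epithelial markers summed to 103 to 144, 62.4 to 78.9 and 34.1 to 57.0 CPM, blood cell markers to 45.7 to 59.6, 48.2 to 69.5 and 48.2 to 75.1 CPM, nearly all CD68, with 4 or 5 of the 7 at 3 counts or fewer in every library of a group, and endothelial markers to 1.35 to 2.39, 4.29 to 5.53 and 1.30 to 5.78 CPM. The endothelial sums of 4OHT_siNT lay above those of DMSO_siNT, and VWF, the tested 1 of the 4, rose by 1.23 in OIS (adjusted p = 0.00121). Adipocyte markers summed to 7.84 to 83.8 CPM in DMSO_siNT and to at most 7.67 CPM in the other groups. The highest sum was nearly all FABP4 in 4-2V (83.4 CPM). No marker list of another cell type was higher in all 4OHT_siSMARCA4 libraries than in all 4OHT_siNT libraries, and the part of the fibroblast and endothelial markers in the C/EBP levels was not tested.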

How the data were processed

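The authors deposited 1 table of gene counts (counts, not normalized), which per the submitters' processing notes came from STAR 2.7.8a on hg38, with DESeq2 1.36.0 also named; the gene counter and its strand setting are not given in the sources used here. Its 36 columns are 2 lanes for each of 18 libraries, and lanes were summed. Of 29 samples in the labels, 17 matched a column; 1 column pair was placed in its group by name alone, 0 columns belonged to other samples, and the remaining samples are not analysed here.

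Genes were filtered with filterByExpr (minimum count 10), scaled by TMM and fitted over all 3 groups in edgeR 4.0.16 (R 4.3.3, limma 3.58.1) by quasi-likelihood, with Benjamini-Hochberg adjustment and a threshold of 0.05. CPM per library is the count over the scaled library total, log2 CPM used a prior count of 2, and 95% intervals are normal ones from the standard error. DESeq2 1.42.0, other scalings, subsets and leaving out each library were alternatives. Scripts were tested on simulated data. Figures used Python 3.11.15 and matplotlib 3.10.9. No 2 libraries of a group agreed within sampling noise (chi-square per degree of freedom 2.33 to 315 over 45 pairs). Pairs with DMSO_siNT 4-2V had 209 to 315, and all other pairs had at most 52.5.

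The members and gene lists were chosen with earlier results of these data known. From each list, the called genes with the largest absolute change were named, up to 4 per comparison, with ATF4, DDIT3, IL6 and CXCL8 always. Genes named beyond that (CEBPZ, CCL2, PTX3, MAPK3, VIM, DCN, COL1A2, CD68, VWF, COL1A1, COL3A1, LUM and motif carriers) were chosen after their values were seen. Gene positions are from GENCODE on GRCh38, promoter sequences from RefSeq on GRCh38.p14.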

Additional observations from a re-analysis of the deposited data

Results flagged for a closer look

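Of 120 sets of 6 libraries examined, 16 had an end library whose gap to its nearest neighbour exceeded Dixon's 95% limit as a share of the set's range on the log2 CPM scale. Chance would give about 6 for independent sets. These sets share the same libraries and many of their genes were picked for their changes, so the count is a description and not a test. In 9 of the 16 that library was DMSO_siNT 4-2V. It was lowest for ESR1 (gap 0.936 of the range), HRAS (0.853) and RPS6KA3 (0.682), and highest for FABP4 (0.761), TRIB1 (0.728), CSF3 (0.725), PSAT1 (0.682), SERPINA1 (0.661) and IL6R (0.661). Another DMSO_siNT library, 2-2VM, was lowest for PPARG (0.632).

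Among 4OHT_siNT libraries, 4-2VM was highest for IL6 (0.633) and CXCL3 (0.644), and 4-1VM was lowest for KLF5 (0.687). Among 4OHT_siSMARCA4 libraries, 4-3V was lowest for HRAS (0.671) and C3 (0.782), and 2-3VM was lowest for CFB (0.675). No set of CEBPB, CEBPD or CEBPG exceeded the limit.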

How the results depend on the processing

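The rise of CEBPB in OIS (1.01 to 1.35 on the log2 scale) and those of CEBPB (1.20 to 1.78) and CEBPG (0.75 to 0.99) in depleted cells against DMSO_siNT were called in all 11 alternatives and with any library left out. CEBPA failed the filter and has no alternatives here; without a filter its difference was 0.65 in OIS (adjusted p = 0.588) and -0.43 in the knockdown (adjusted p = 0.871). For other results that changed the cause was not tested.

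CEBPB in the knockdown was called at 0.36 with library totals only, 0.48 in VM sets, 0.33 with the compared groups alone, 0.43 with siRNA 2, 0.44 in VM sets with the unlabelled library and 0.32 without both DMSO_siNT 4-2V and the unlabelled library, the last pair of settings being chosen after seeing the data. CEBPD in OIS turned to 0.18 in VM sets, with or without the unlabelled library. CEBPG in OIS lost its call in VM sets (0.31, also with the unlabelled library) and with siRNA 4 (0.20). In the knockdown CEBPG lost it in VM sets (0.44), with siRNA 2 (0.20) and with siRNA 4 (0.79), and CEBPD with siRNA 4 (0.80). CEBPD against DMSO_siNT was called in VM sets (1.49), with siRNA 2 (0.71), in VM sets with the unlabelled library (1.356) and without both libraries (0.89). Genes called in the knockdown numbered 2858 in VM sets, 3405 with the compared groups alone, 3429 with siRNA 2, 4 with siRNA 4, 4064 in VM sets with the unlabelled library and 2670 without both libraries, against 1397; with siRNA 4, 4119 were called against DMSO_siNT. With coding lengths CEBPB held 76.5% and 70.8% of the C/EBP sum in 4OHT_siNT and 4OHT_siSMARCA4, CEBPD 14.0% in 4OHT_siSMARCA4, and CEBPG 19.5%, 14.4% and 15.2% in DMSO_siNT, 4OHT_siNT and 4OHT_siSMARCA4. Between the SMARCA4 siRNAs CEBPD was at -0.0069 with RLE size factors.

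With single libraries left out, CEBPD in OIS ranged from -0.72 to -0.21 (called at -0.72 without DMSO_siNT 2-2VM), CEBPB in the knockdown from 0.28 to 0.37 (called without DMSO_siNT 4-2V), CEBPD in the knockdown from 0.95 to 1.20 (not called without 4OHT_siNT 2-1VM, 2-2VM or 2-3VM or 4OHT_siSMARCA4 4-2VM), CEBPD against DMSO_siNT from 0.33 to 0.85 (called without DMSO_siNT 4-2V), and genes called in the knockdown from 923 to 3269 (923 without the unlabelled library, 931 without 4OHT_siSMARCA4 2-3VM, 3269 without DMSO_siNT 4-2V). Between siNT 2 and siNT 4 in 4OHT cells CEBPB ranged from -0.065 to 0.0037 (above 0 without 4OHT_siNT 2-1VM) and CEBPG from 0.42 to 0.49 (called without DMSO_siNT 4-2V, adjusted p = 0.0315). Between the SMARCA4 siRNAs CEBPD ranged from -0.19 to 0.30, with -0.0073 without DMSO_siNT 4-2V and -0.065, -0.016, -0.06 and -0.19 without 4OHT_siSMARCA4 2-3V, 2-3VM, 4-2V and 4-3V. In DMSO cells CEBPB ranged from -0.53 to -0.31 (called at -0.53 without 4-2VM), CEBPD from -0.85 to 0.38 (0.38 without 4-2V) and CEBPG from -0.031 to 0.14 (-0.031 without 2-2VM).

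The set labels were tried as a replicate block. Deviations of libraries with the same set label correlated at -0.04 (2VM) and 0.27 (3VM) in OIS, -0.05 and 0.16 in the knockdown, and -0.07, 0.15 and -0.23 (2V) against DMSO_siNT. These values rest on few libraries and differ in sign, so they cannot decide whether the labels pair the libraries. The main fits treat the libraries as unpaired. With the block, CEBPD in OIS was 0.023, CEBPG in OIS 0.41 (adjusted p = 0.0886), CEBPD in the knockdown 0.95 (adjusted p = 0.29) and CEBPG in the knockdown 0.53 (adjusted p = 0.21), and 4356 and 236 genes were called in OIS and in the knockdown.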
